A study of Mus musculus with 4 samples.

Results

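A set of 43 cell-cycle genes was followed across the cell types of a mouse pancreas and pancreatic tumour single-cell RNA-seq study. The set is a list of known cell-cycle genes taken by symbol and not by a threshold on measured values, although it was drawn up with earlier results of these data known, and all 43 symbols were present among the 32285 genes of the deposited matrices. Each of 4 groups is 1 library: normal pancreas; pancreas whose middle was tied off with suture to block the duct and bring on pancreatitis (the ligated library); a KPC tumour given saline; and a KPC tumour given AF12198. Both tumours grew for 4 weeks from KPC cells injected into suture-ligated pancreas, so the ligation is shared by 3 of the 4 groups. Saline or AF12198, a small peptide that blocks the interleukin-1 receptor IL1R1, was injected into the peritoneum once a week. KPC cells come from a mouse model of pancreatic cancer, and whether the injected cells are 1 clone is not given in the sources used here. Strain, age, sex and the number of animals per library are not given either.

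A dividing cell passes through G1, copies its DNA in S phase and separates the copies in mitosis, and most of the genes that run these steps are transcribed only in the phase that needs them. E2F transcription factors switch on the G1/S genes once D-type cyclins and their kinases have inactivated the retinoblastoma protein. The G2/M genes are read later, through CCAAT boxes bound by NF-Y and through the cell cycle genes homology region (CHR) bound by the DREAM and MMB complexes. Resting pancreas divides little, whereas inflamed and tumour-bearing pancreas holds dividing epithelial, stromal and immune cells.

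By role, Mki67 (a protein that coats mitotic chromosomes) and Top2a (the topoisomerase that untangles DNA) are the usual proliferation markers. Mcm2, Mcm3, Mcm4, Mcm5, Mcm6 and Mcm7 form the replicative helicase, Rrm1, Rrm2, Tyms and Tk1 supply nucleotides, and Pcna (the sliding clamp) with its partner Pclaf acts at the replication fork. The cyclins are Ccnd1 (G1), Ccne1 and Ccne2 (entry into S phase), Ccna2 (S and G2) and Ccnb1 and Ccnb2 (mitosis), and Cdk1 is the mitotic kinase. Aurka, Aurkb and Plk1 are mitotic kinases, Bub1 and Bub1b serve the spindle checkpoint, and Cdc20 and Ube2c work with the anaphase-promoting complex. Birc5 and Cdca8 belong with Aurkb to the chromosomal passenger complex, Cenpa, Cenpe and Cenpf sit at the centromere or kinetochore, and Cdca3 promotes entry into mitosis. Kif11, Kif20a, Kif23, Nusap1, Prc1, Tpx2 and Stmn1 shape the spindle, other microtubules or the cleavage furrow. Cdkn1a (p21) and Cdkn2a (p16 and Arf) are inhibitors of the cycle. From here on, 14 members are called G1/S genes and 25 G2/M genes, and Ccnd1, Cdkn1a, Cdkn2a and Stmn1 belong to neither.

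RefSeq promoters (GRCm38.p6) were matched for 35 of the 43 members, 12 of them G1/S and 21 G2/M genes. No entry was matched for Kif20a, Mcm4, Ccne2, Ccnd1, Stmn1, Ccna2, Aurkb and Tpx2. A symbol with several entries counts where any of them matches. The 300 bases of each entry, around the annotated start, were searched on both strands for CHR (TTTGAA), the CCAAT box (CCAAT) and 4 E2F octamers (TTTCCCGC, TTTCGCGC, TTTGCCGC and TTTGGCGC), whose matches on the 2 strands can overlap. The 160 bases upstream of the start are shown for 4 genes with CHR and CCAAT boxes (Cdc20, Top2a, Ube2c and Cdk1) and 2 helicase genes with E2F octamers (Mcm5 and Mcm6) as examples of these layouts, which not all members have: CHR was found in 17 and an E2F octamer in 7 of the 35. Each reads 5′ to 3′ along the gene, and capitals mark every match on either strand, so that CCAAT on the opposite strand reads ATTGG and CHR reads TTCAAA.
Cdc20: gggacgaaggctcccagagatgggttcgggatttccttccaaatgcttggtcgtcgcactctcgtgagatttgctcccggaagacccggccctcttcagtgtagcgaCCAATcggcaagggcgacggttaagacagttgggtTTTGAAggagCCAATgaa
Top2a: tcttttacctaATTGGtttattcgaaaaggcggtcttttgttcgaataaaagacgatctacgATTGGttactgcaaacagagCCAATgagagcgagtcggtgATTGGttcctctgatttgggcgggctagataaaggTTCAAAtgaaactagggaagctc
Ube2c: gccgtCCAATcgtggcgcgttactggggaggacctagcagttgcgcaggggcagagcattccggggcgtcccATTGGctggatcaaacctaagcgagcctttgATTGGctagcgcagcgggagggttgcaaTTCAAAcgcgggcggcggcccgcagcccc
Cdk1: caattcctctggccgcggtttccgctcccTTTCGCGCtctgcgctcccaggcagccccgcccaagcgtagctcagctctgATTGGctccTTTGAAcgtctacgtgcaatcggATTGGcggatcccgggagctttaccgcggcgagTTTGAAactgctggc
Mcm5: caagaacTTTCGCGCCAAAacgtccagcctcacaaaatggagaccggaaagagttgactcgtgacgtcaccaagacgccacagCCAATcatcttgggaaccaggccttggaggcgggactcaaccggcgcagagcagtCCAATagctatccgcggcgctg
Mcm6: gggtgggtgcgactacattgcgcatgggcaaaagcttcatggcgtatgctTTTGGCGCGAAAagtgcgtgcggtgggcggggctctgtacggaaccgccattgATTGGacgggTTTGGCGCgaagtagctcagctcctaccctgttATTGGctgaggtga
These stretches lie at chr4:118437344-118437503 (minus strand, Cdc20), chr11:99024190-99024349 (minus strand, Top2a), chr2:164769769-164769928 (plus strand, Ube2c), chr10:69352913-69353072 (minus strand, Cdk1), chr8:75109349-75109508 (plus strand, Mcm5) and chr1:128359706-128359865 (minus strand, Mcm6). A match is a description of letters and not a shown binding site.

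CHR was found in 16 of 21 G2/M promoters (76.2%) and in 1 of 12 G1/S promoters (8.33%, Mcm2), against 20.2% of all 27025 symbols in the table. E2F octamers had the opposite layout, with 5 of 12 G1/S promoters (41.7%), 1 of 21 G2/M promoters (4.76%, Cdk1) and 2.605% of all symbols. CCAAT boxes were present in 19 of 21 G2/M (90.5%) and 9 of 12 G1/S promoters (75%), against 41.1% of all symbols. Genes on a fixed list of other cell-cycle genes had the same layout: 22 of 36 other G2/M promoters (61.1%) held CHR and 10 of 26 other S-phase promoters (38.5%) held an E2F octamer. Cdk1 was the only printed promoter with all 3 motifs.

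**Figure D1:**
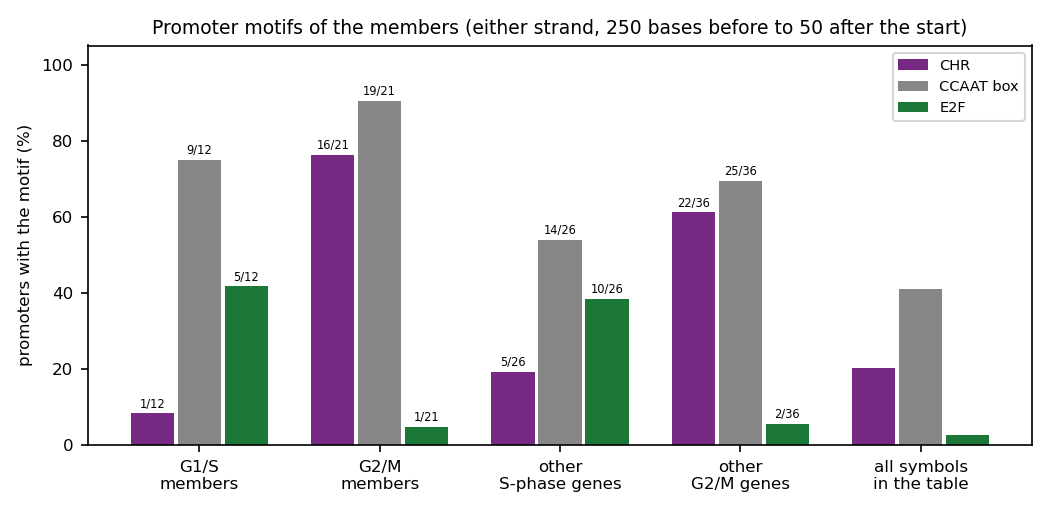
Percent of promoters (y axis) that hold each motif, for G1/S members, G2/M members and all symbols in the table. CHR stands at 76.2% of G2/M members and E2F octamers at 41.7% of G1/S members.

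Counts of unique molecular identifiers (UMIs) were summed over the cells of a class within a library and given as CPM, that is, scaled so that all genes of a pool sum to the same total. With 1 library per group there is no test between groups: intervals are 95% exact intervals that cover counting error only. A gene was called higher or lower at a ratio of 1.5-fold, and counts of called members stand beside the share of all measured genes that passed the same fold. A gene was measured when the mean of its levels in the 2 libraries gave at least 5 UMIs in the smaller pool. A gene almost absent from the one library then passes only through the other and is bound to be called; such calls are counted below as set by the minimum, and they are no support for a direction. The 3′ libraries do not give levels per transcript length, so levels are compared between cells and libraries and not between genes. In bulk sums of this kind, fewer dividing cells and less RNA per dividing cell cannot be told apart unless the cells are counted, which is done below.

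Kept cells numbered 1771, 1124, 19124 and 18875 in the normal, ligated, control tumour and AF12198 tumour libraries, with medians of 1589, 2216, 2030 and 2298 UMIs. The 169 cell-cycle genes left out of clustering include the members, so the members did not shape the 32 clusters. Epithelial cells of the normal and ligated libraries sat almost wholly in cluster 13 (Onecut1, Pkhd1 and Dcdc2a), and 87.1% and 85.1% of those in the control and AF12198 tumours sat in cluster 15 (Onecut2, Foxq1 and Cldn18), so epithelial cells are also given by cluster. Cluster 11 (Tff1, Cdh17, Cldn18 and mesothelial Msln) met the marker lists of more than 1 class and stays unnamed. Cdkn2a, high in cluster 15, was also among its leading genes, and its median depth was 1598 UMIs; whether it holds tumour epithelial cells was not tested, and it is not counted in the epithelial shares. The 2 tumour libraries shared 129 barcodes and the other pairs between 1 and 18. Cells left without a name were 44.1% of the normal library, of which 661 were insulin-rich cells of cluster 18, and 3.47% to 3.91% of the others.

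A cell was counted as cycling when Mki67 and Top2a together had at least 2 UMIs. Cycling cells were 5 of 1771 (0.282%) in normal pancreas, 17 of 1124 (1.51%) in ligated pancreas, 1125 of 19124 (5.88%) in the control tumour and 985 of 18875 (5.22%) in the AF12198 tumour. Both tumours stood above both non-tumour libraries beyond counting error, and the ligated library above the normal one. Whole-library shares also depend on which cells a library holds and on their depth. The 661 insulin-rich cells of normal pancreas had a median of 694 UMIs. In epithelial cluster 13 cycling cells were 3 of 589 in normal and 3 of 327 in ligated pancreas. No rise of cycling with ligation is therefore read from the library shares. Among cells removed as doublets the share was 7.61% in the control and 6.14% in the AF12198 tumour. The rule is sensitive to depth: cycling cells of the control tumour's cluster 15 had a median of 33209.5 UMIs and its other cells 15804.5. Shares were therefore also computed with every cell thinned to 2000 UMIs and shallower cells left out. Thinning can only lower a cell's count. A share that rises on thinning therefore does so because shallower cells were left out.

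Epithelial cells of the tumours were among the classes with most cycling cells. The share was 3 of 589 (0.509%) in normal, 3 of 330 (0.909%) in ligated, 186 of 627 (29.7%, interval 26.1 to 33.4) in the control tumour and 122 of 531 (23.0%, 19.5 to 26.8) in the AF12198 tumour. Thinned to 2000 UMIs, these were 0.187%, 0.422%, 6.87% and 5.56%, so the tumours remained above the non-tumour libraries at matched depth. T cells of the control tumour stood at 13.2% thinned, but more of them were left out as too shallow. Of control cells, cluster 15 kept 539 of 546 and T cell cluster 5 kept 853 of 1463. No order of epithelial and T cells is therefore read from the thinned shares. Within cluster 15, 182 of 546 control cells (33.3%) and 114 of 452 AF12198 cells (25.2%) were cycling, a ratio of 0.757 (0.593 to 0.961) that became 0.846 (0.503 to 1.41) after thinning to 2000 UMIs. In cluster 11 the share was 11.6% in the control (72 of 623) and 6.96% in the AF12198 tumour (43 of 618), a ratio of 0.602 (0.403 to 0.890). Cluster 13 held 0.509% and 0.917% cycling cells in normal and ligated pancreas, 4.94% (4 of 81) in the control and 10.1% (8 of 79) in the AF12198 tumour; these last 2 intervals overlap.

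Lymphoid classes differed among themselves. T cells were cycling at 10.3% in the control tumour (246 of 2383) and 9.49% in the AF12198 tumour (238 of 2509), and 1 of 56 T cells was cycling in the ligated library. Cycling was high in cluster 5 (Cd8a and Pdcd1; 13.5% control, 15.8% AF12198) and in cluster 19 (Foxp3 and Il2ra; 11.9% and 14.3%), and low in cluster 7 (Lef1 and Tcf7; 3.03% and 2.37%). Cluster 5 made up 61.4% of control T cells and 42.0% of AF12198 T cells, and cluster 7 made up 29.1% and 45.5%. Plasma cells had 14.1% (42 of 297) and 23.5% (16 of 68), B cells 2.25% (14 of 623) and 0.431% (2 of 464), and NK cells 2.80% and 1.67%. The plasma intervals overlap (10.4 to 18.6 and 14.1 to 35.4), and median plasma depths were 7753 and 13692.5 UMIs. Thinned to 2000 UMIs, plasma shares were 6.96% and 14.3%, again with overlapping intervals, so no order is read from them. In the T class the median depth was 1894 UMIs in the control and 2646 in the AF12198 tumour, and after thinning the shares were 13.2% and 8.57%, a ratio of 0.647 (0.512 to 0.816) against 0.919 (0.766 to 1.10) before it.

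Myeloid classes also differed. Dendritic cells stood at 9.45% (92 of 974) in the control and 9.49% (90 of 948) in the AF12198 tumour, a ratio of 1.01 (0.743 to 1.36), and 90 of the 92 in the control tumour belonged to cluster 10 (Cd209a and Xcr1; 12.3% of its cells). Cluster 22 (Ccr7 and Ccl22) held 0 of 156 cycling cells in the control tumour, which allows up to 1.92% (3 cells of the total, the limit used for every count of 0), and 4.02% in the AF12198 tumour. Macrophages and monocytes stood at 3.24% (6 of 185) in ligated, 5.54% (262 of 4726) in control and 7.06% (309 of 4378) in AF12198 tissue. The last difference is a ratio of 1.27 (1.08 to 1.51), but the summed Mki67 and Top2a level was 115 CPM in the control and 110 CPM in the AF12198 tumour, and thinned shares were 3.88% and 2.96%, so no order is read from it. Median depths in that class were 950, 2932.5 and 5928 UMIs in the ligated, control and AF12198 libraries. Cluster 2 (Ccl8 and Fcrls) held more cycling cells (8.83% control, 12.5% AF12198) than cluster 4 (Arg1 and Mmp12; 6.01% and 6.24%), cluster 8 in the control (1.495%) or cluster 9 in the AF12198 tumour (1.93%).

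Neutrophils, which no longer divide once mature, are given as a low reference. The 48 AF12198 neutrophils that met the rule had 34 of the 41 other members at least 1.5-fold higher than the rest, at a median ratio of 8.85. Whether they are dividing cells, doublets or stray counts was not tested. Without cluster 31 they stood at 0.606% in the control (36 of 5942) and 0.647% in the AF12198 tumour (48 of 7422), at median depths of 1382 and 1347 UMIs, and at 0 of 75 in the ligated library, which allows up to 4%. The shares of normal and ligated epithelial cells lie near those of tumour neutrophils, but at other depths (cluster 13 medians of 10948 and 4045 UMIs). The shares of T, dendritic, plasma, endothelial and epithelial cells of the tumours lie well above them. Endothelial cells were cycling in 0 of 261 cells in normal pancreas (up to 1.15%), 0 of 128 in ligated (up to 2.34%), 39 of 501 in the control tumour (7.78%) and 21 of 344 in the AF12198 tumour (6.10%). Fibroblasts were cycling in 0 of 91 normal cells (up to 3.30%), 4 of 277 ligated (1.44%), 83 of 1344 control (6.18%) and 46 of 526 AF12198 cells (8.75%). The fibroblast ratio of control over ligated was 4.28 (1.61 to 16.1) in all cells and 1.06 after thinning to 2000 UMIs, with median depths of 4628 and 8545.5 UMIs. At equal depth the 2 fibroblast shares were therefore not distinguishable.

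**Figure D2:**
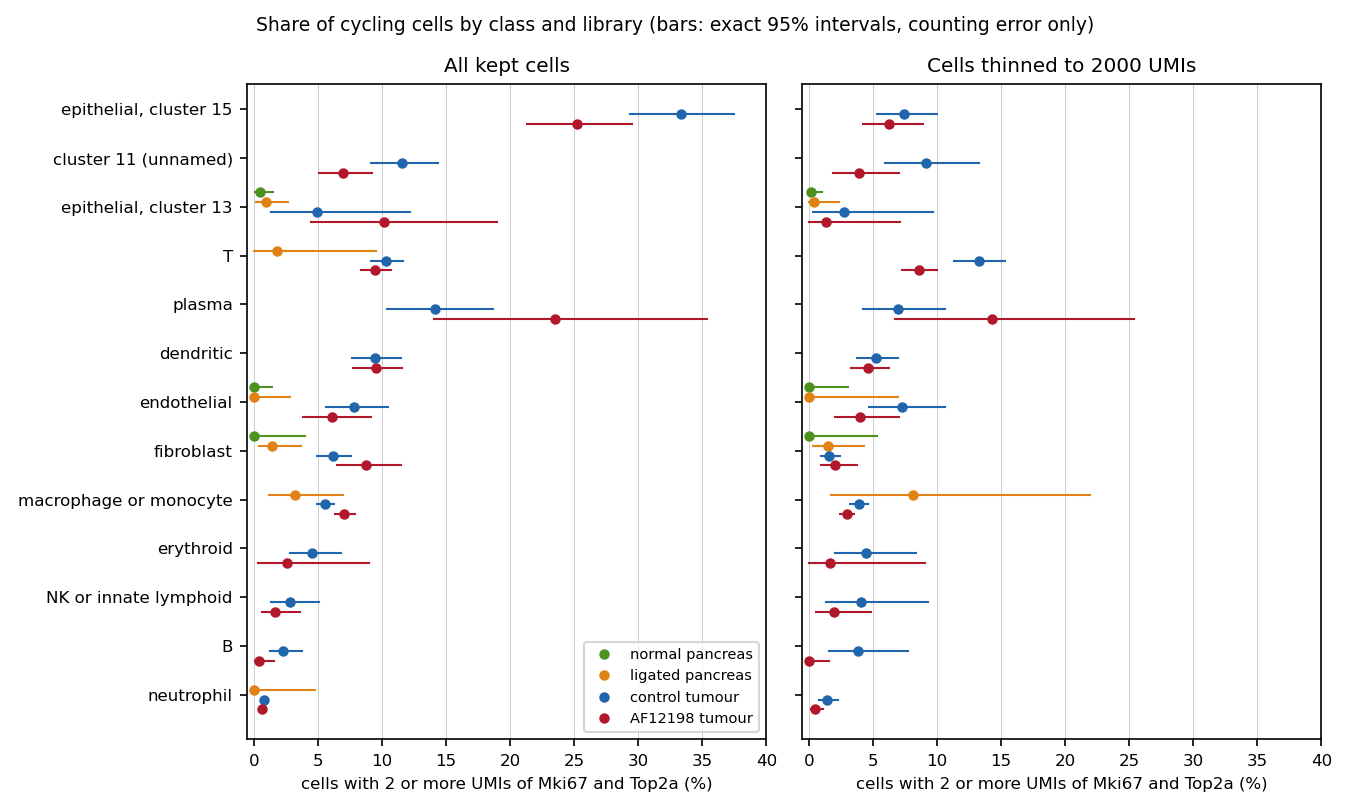
Share of cycling cells in percent (x axis; points) with exact 95% intervals of counting error (bars), by cell class or cluster (rows; neutrophils with cluster 31) and library (colours), in all kept cells (left) and in cells thinned to 2000 UMIs (right). Epithelial cluster 15 stands at 33.3% and 25.2% on the left. T cells of the control tumour stand at 10.3% on the left and 13.2% on the right, where cells under 2000 UMIs are left out.

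Macrophages supplied 23.3% of all cycling cells in the control tumour and 31.4% in the AF12198 tumour, T cells 21.9% and 24.2%, epithelial cells 16.5% and 12.4%, and dendritic cells 8.18% and 9.14%. Fibroblasts (7.38%), cluster 11 (6.40%), neutrophils (4.27%) and plasma cells (3.73%) followed in the control tumour. These are shares of sequenced cells and depend on how tissue was dissociated.

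Summed levels do not depend on the cycling rule. The 25 G2/M members together stood at 47.8, 49.4, 1426 and 991 CPM in epithelial cells of the normal, ligated, control and AF12198 libraries. In T cells they reached 503 CPM (ligated), 1475 CPM (control), the highest of any named class and library, and 1217 CPM (AF12198). The ligated T value rests on 56 cells, in which 5 of the 43 members could be measured, and most of it came from Cenpa. Endothelial cells had 77.0, 73.6, 930 and 717 CPM, and fibroblasts 33.2, 265, 439 and 522 CPM, in the order normal, ligated, control and AF12198. The 14 G1/S members were less uneven between libraries: 176, 198, 879 and 582 CPM in epithelial and 326, 321, 847 and 560 CPM in endothelial cells. The ratio of summed G1/S to summed G2/M levels was 3.68 and 4.01 in normal and ligated epithelial cells and 0.617 and 0.587 in the tumours, and it was 4.24, 4.36, 0.910 and 0.781 in endothelial cells. In fibroblasts it was 4.32 in normal and 0.757, 0.812 and 0.750 in the ligated, control and AF12198 libraries. The normal value rests on 91 cells with 1 UMI each of Mki67 and Top2a. The ligated value rests on 277 cells, of which 4 were cycling, so no change with ligation is read from it.

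**Figure D3:**
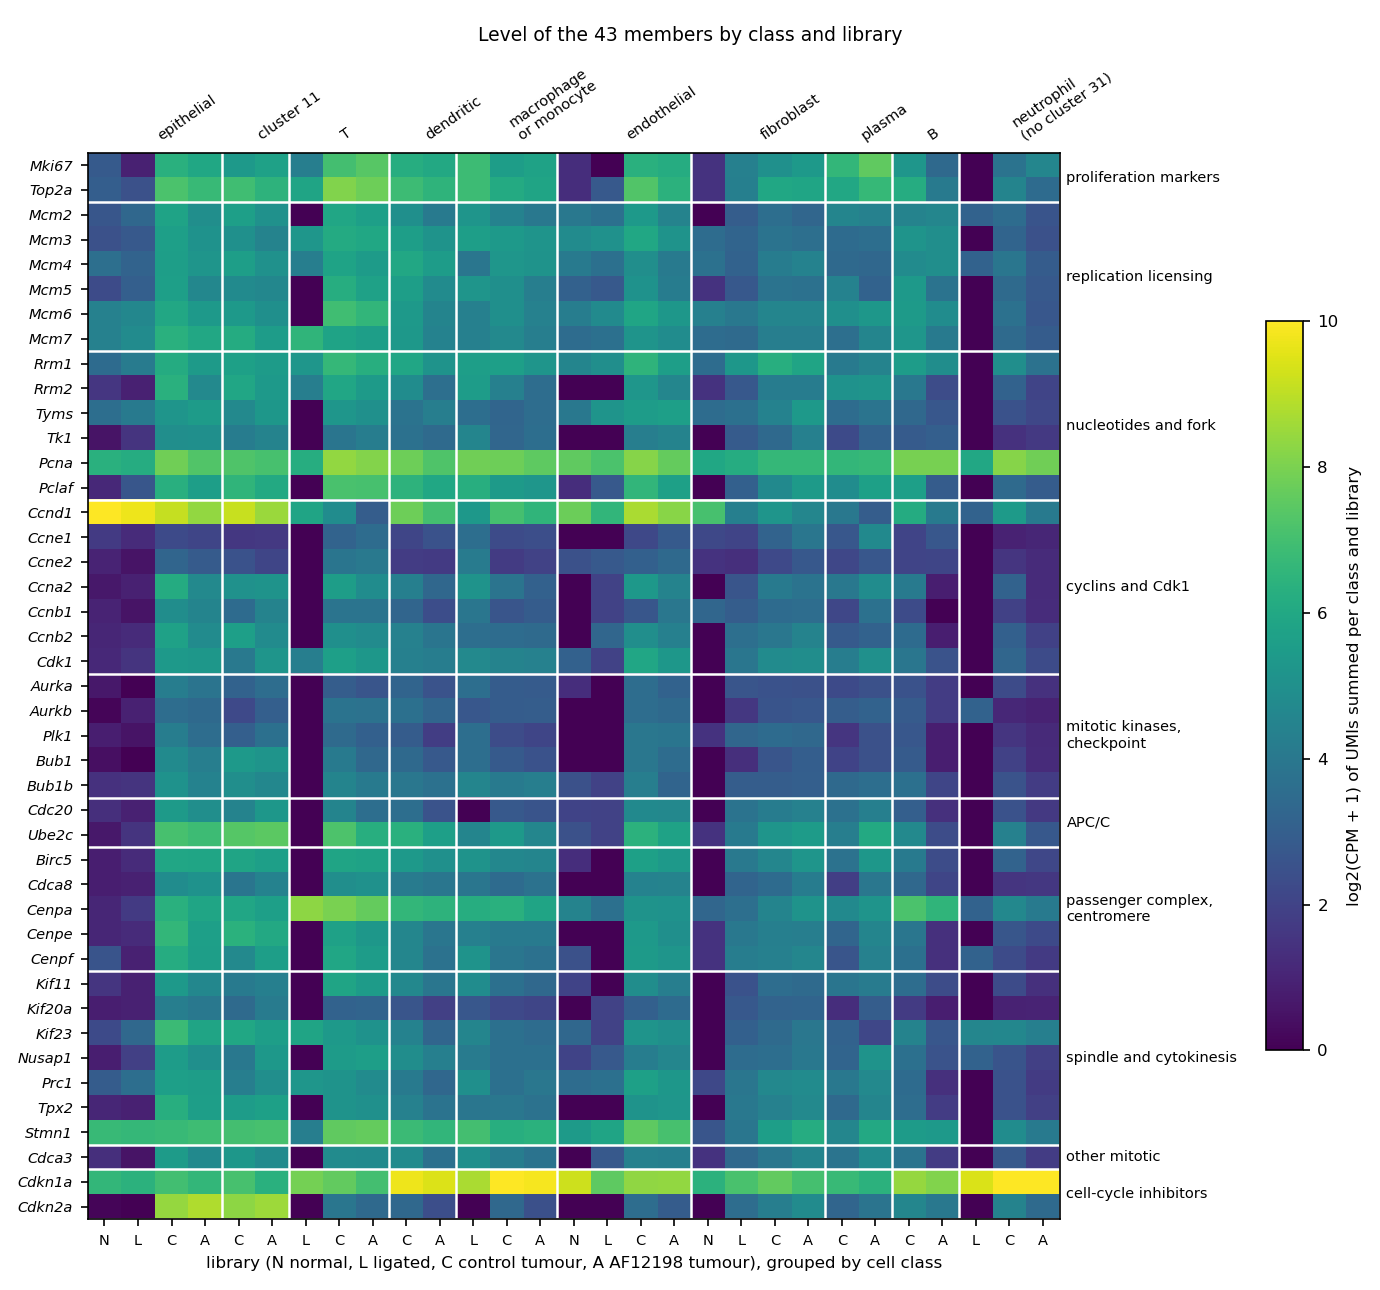
Levels of the members (rows, by role) in each class and library (columns) as log2(CPM + 1), shown by colour. Most G2/M members are near 0 in normal and ligated epithelial and endothelial cells and raised in both tumours, whereas Pcna, Ccnd1 and Cdkn1a have UMIs in every pool.

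In cluster 13, ligation came with calls in both directions among the few members that could be measured. There, 18 of the 43 members had enough UMIs to be measured against normal pancreas, and 6 were called higher (all measured genes: 16.2% higher) and 4 lower (all: 11.1%). With the library totals computed without Gm42418, mitochondrial and haemoglobin genes, 22.9% of all genes were higher and 7.06% lower, and members stood at 8 and 1. Pclaf was at 1.23 CPM in normal and 5.53 CPM in ligated cells, a ratio of 4.50 (1.82 to 11.2). Kif23, which drives the cleavage furrow, was at 3.80 and 8.75 CPM (2.30, 1.24 to 4.16). Mki67 went the other way, at 6.03 CPM (54 UMIs) and 0.461 CPM (1 UMI), and Ccnd1 was at 1343 and 875 CPM (0.652, 0.621 to 0.684). The 54 Mki67 UMIs came from 1.02% of the 589 normal cells. Cycling cells were 3 of 589 in normal and 3 of 327 in ligated cluster 13, so no fall of Mki67 is read. G1/S members were called higher in 4 of 10 and lower in 0, and G2/M members higher in 2 of 5 and lower in 3. Of these calls, 1 higher and 2 lower were set by the minimum. After thinning to 2000 UMIs, of 10 members 3 were higher (all genes 23.4%) and 1 lower (all genes 16.0%).

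In fibroblasts several G2/M members were called higher after ligation, on 1 or 2 UMIs in normal tissue. Of 16 measured members, 8 were higher (all genes 17.8%) and 2 lower (all genes 19.7%). Mki67 was at 1.75 CPM (1 UMI) in normal and 19.3 CPM (37 UMIs) in ligated fibroblasts, a ratio of 11.1 with an interval of 1.87 to 448. Top2a (10.8), Cenpf (10.2), Ube2c (9.27) and Prc1 (4.04) had similar ratios, each on 1 or 2 UMIs in 91 normal fibroblasts. All 5 were calls set by the minimum, as were 6 of the 8 higher calls, so these counts are no support for a rise after ligation. G1/S members were higher in 1 and lower in 1 of 7. Thinned to 2000 UMIs, 3 members were measured, of which 0 were higher (all genes 19.5%) and 1 lower (all genes 22.4%). Ccnd1 was lower by the largest ratio, from 136 to 18.8 CPM (0.138, 0.0903 to 0.207). The median log2 ratio of the measured members was 0.56 and became -0.37 when clusters were drawn at a resolution of 2.0, so it depends on which cells are called fibroblasts. Of 9 members measured in endothelial cells, Cdkn1a (608 and 182 CPM, interval of the ratio 0.226 to 0.393) and Ccnd1 (217 and 94.2 CPM, 0.433) were lower after ligation with intervals that leave out 1. The median log2 ratio of the 9 was 0.25 beside 0.23 for all genes. Cluster 26 made up 1.15% of the normal and 29.7% of the ligated endothelial cells. The 2 pools thus hold different mixes of endothelial cells, so no fall per cell is read from these levels.

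The largest contrast was between tumour and ligated epithelial cells. All 43 members were measured, and 40 were higher in the control tumour (all genes 26.8%) and 1 lower (all genes 38.5%). The median log2 ratio of members was 4.23, and that of all genes -0.20; 3 members had 0 UMIs in ligated cells and entered at their lower bound. This contrast sets cluster 15 tumour cells against cluster 13 cells, and cell type of origin and cell division cannot be told apart in it. Every G1/S (14 of 14) and every G2/M member (25 of 25) was called higher. All members passed the minimum, but those almost absent from ligated cells passed it only through the tumour. Examples are Cdca3 (1 ligated UMI) and Mki67, Rrm2 and Tpx2 (2 each), and such calls are no support for a direction.

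Top2a was at 7.04, 4.53, 142 and 106 CPM in epithelial cells of the normal, ligated, control and AF12198 libraries. Mki67 was at 6.03, 0.907, 80.8 and 61.0 CPM, a control over ligated ratio of 89.1 (24.6 to 736). Both markers were thus low without a tumour and high in both tumours, as were the helicase genes: Mcm2 was at 5.48, 9.07, 54.4 and 29.4 CPM. Mcm6 had a higher floor, at 20.2, 24.0, 62.0 and 40.9 CPM, as did Pcna at 81.5, 73.0, 229 and 154 CPM. Rrm2, the regulated subunit of ribonucleotide reductase, was at 2.01, 0.907, 79.6 and 25.5 CPM (control over ligated 87.8). Among mitotic members, Ube2c was at 0.559, 1.81, 135 and 116 CPM, and Birc5 at 0.782, 1.36, 59.2 and 57.7 CPM. Cenpe, the kinetochore motor, was at 1.12, 1.36, 97.8 and 49.7 CPM. The remaining mitotic members had the same order of tumour over non-tumour cells. Stmn1, a microtubule destabiliser, did not: it was at 106, 99.7, 107 and 117 CPM. Ccnd1 was the member lower in the tumour, at 1343, 861, 553 and 332 CPM.

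Cluster 13 could be compared with itself between the libraries. Its 81 control tumour cells had 15 of 22 measured members higher (all genes 18.7%) and 0 lower (all genes 20.3%), but 8 of the 15, among them 7 of the 8 G2/M calls, were set by the minimum. Mki67 was at 21.3 CPM (15 UMIs) against 0.461 CPM (1 UMI), and Birc5 and Ube2c were each at 21.3 against 1.38 CPM. Free RNA of the library was estimated to give 10.3% of the G2/M level in these cells. The number of cells is small and 4 of the 81 met the cycling rule.

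Endothelial cells of the tumours carried members that had few or no UMIs in ligated pancreas, without a change of main cluster. Of 27 measured members, 26 were higher in the control tumour than in ligated pancreas (all genes 23.9%) and 0 lower (all genes 29.7%). Of the 26 calls, 19 were set by the minimum, including all 13 G2/M calls, and the other 16 members could not be measured, so the count is no support for a rise of the set. Top2a was at 1.51, 5.88, 153 and 86.1 CPM in the normal, ligated, control and AF12198 libraries, Ube2c at 4.53, 2.94, 84.4 and 53.1 CPM, and Pclaf at 1.51, 5.88, 94.7 and 49.8 CPM. The control over ligated ratios were 26.0 (7.14 to 216), 28.7 (5.08 to 1140) and 16.1 (4.40 to 134), each on 1 or 2 ligated UMIs. Cdk1 (20.2) and Ccna2 (13.2) followed. Both tumours were high and both non-tumour libraries near 0. Cluster 14 held 70.3% of the ligated and 79.2% of the control endothelial cells. With every cell thinned to 2000 UMIs only 6 members could be measured, 5 were called higher (all genes 24.9%), and the median log2 ratio was 0.98 instead of 2.06.

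In fibroblasts 26 of 42 members were higher in the control tumour than in ligated pancreas (all genes 21.5%) and 0 lower (all genes 16.2%). Without Gm42418, mitochondrial and haemoglobin genes in the totals, 20 members were higher, 15.6% of all genes were higher and 20.9% lower, and the median log2 ratio of all genes went from 0.10 to -0.05. G1/S members were called higher in 11 of 13 and G2/M members in 12 of 25. Pclaf was at 0, 7.31, 26.2 and 42.7 CPM across the 4 libraries (control over ligated 3.58, 2.11 to 6.62). Top2a was at 1.75, 18.8, 61.1 and 58.3 CPM (3.25, 2.33 to 4.68), and Stmn1 at 5.24, 14.1, 47.8 and 71.9 CPM (3.39, 2.31 to 5.18). All 3 stood higher in control tumour than in ligated fibroblasts. Free RNA was estimated to give 14.8% of the control fibroblasts' G2/M level and 7.10% of the ligated fibroblasts'.

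Macrophages and monocytes went the other way, with 5 of 30 measured members higher in the control tumour (all genes 19.6%) and 13 lower (all genes 22.6%). Mki67 was at 115 CPM in ligated, 46.4 in control and 53.5 CPM in AF12198 macrophages, a control over ligated ratio of 0.402 (0.294 to 0.563). Tk1 (0.388), Prc1 (0.390), Ccna2 (0.392) and Cenpf (0.423) were also lower. Ccnd1 (39.4 to 131 CPM; 3.33, 1.98 to 6.10), Mcm4 (14.1 to 36.9; 2.62) and Cdkn1a (425 to 1079; 2.54) were higher. The ligated pool holds 185 cells, 75.1% of them in cluster 9, and 6 of them were cycling, whereas clusters 2, 8 and 4 hold 43.6%, 34.0% and 19.0% of control macrophages. With the reduced totals the split was 4 higher and 15 lower, beside 15.1% and 27.4% of all genes. In T cells only 5 members had enough UMIs in the 56 ligated cells, of which Stmn1 (10.1, 1.82 to 401), Top2a (4.93, 1.68 to 23.9) and Pcna (4.48, 1.75 to 16.5) were higher in the control tumour, all by calls set by the minimum; 83.9% of those ligated T cells were in cluster 7, against 29.1% in the control tumour.

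The median log2 ratio of members was 4.23 for control over ligated epithelial cells and -0.46 between the 2 tumours in cluster 15. In endothelial cells these medians were 2.06 and -0.43, in fibroblasts 0.72 and 0.15, and in macrophages -0.48 and -0.23. The control over ligated values have the limits given above. The AF12198 tumour was not compared with non-tumour tissue, and several classes had no non-tumour pool. The median of all measured genes was lower in the AF12198 library in each class below, so members are read against that shift. In tumour epithelial cluster 15, 0 members were higher (all genes 11.8%) and 17 of 43 lower (all genes 29.1%), with a median log2 ratio of -0.46 beside -0.29 for all genes. Lower members were 6 of 14 G1/S and 9 of 25 G2/M genes. Rrm2 was at 83.2 CPM in the control and 26.3 CPM in the AF12198 tumour (0.316, 0.275 to 0.361), and Ccna2 at 73.7 and 26.3 CPM (0.357, 0.311 to 0.409). Mcm5 (51.7 and 25.1 CPM), Kif23 (117 and 60.4) and Cenpe (102 and 53.3) stood next, at ratios of 0.485, 0.515 and 0.521. Not all members followed: Birc5 was at 61.2 and 61.6 CPM, Prc1 at 50.4 and 48.6, Cdk1 at 43.3 and 40.1, Tk1 at 31.4 and 31.9 and Tyms at 37.4 and 46.3 CPM. At a 2-fold threshold 3 of the 17 were still called.

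In cluster 11, members were called in both directions. Of 42 measured members 10 were higher (all genes 17%) and 5 lower (all genes 26.8%), and 9 of the 10 were G2/M genes. Nusap1 was at 15.03 and 39.1 CPM (2.60, 1.67 to 4.15), Cdk1 at 15.5 and 36.4 CPM (2.34), Ccnb1 at 10.4 and 21.2 (2.04), Cenpf at 24.9 and 47.2 (1.90) and Cdc20 at 21.2 and 38.0 (1.79) in the control and AF12198 tumours. Ccnb2 (0.568), Cdkn1a (0.597), Ccnd1 (578 and 358 CPM; 0.618), Mcm7 (0.649) and Mcm2 (0.661) were lower. Whereas the share of cycling cells was lower in the AF12198 tumour, the summed G2/M level was 984 CPM in the control and 1027 CPM in the AF12198 tumour. Thinned to 2000 UMIs, the balance turned, with 7 of 40 higher (all genes 16.8%) and 14 lower (all genes 32.9%), so no direction is read for this cluster.

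In T cells 0 members were higher (all genes 7.54%) and 6 of 43 lower (all genes 41.1%), a smaller share than among all genes. Mki67 was at 18.6, 128 and 168 CPM in the ligated, control and AF12198 libraries, Top2a at 55.8, 275 and 218 CPM, Pcna at 74.5, 334 and 281 CPM, Mcm6 at 0, 120 and 95.9 CPM, Pclaf at 0, 137 and 136 CPM and Stmn1 at 18.6, 189 and 200 CPM. These genes were low in the ligated library, and between the tumours none of them passed 1.5-fold. Ccnd1 (28.3 and 6.70 CPM; 0.237, 0.172 to 0.321) and Ube2c (147 and 76.4 CPM; 0.518, 0.468 to 0.574) were the lowest ratios, followed by Cdc20 (0.526), Bub1 (0.581) and Ccna2 (0.612). By cluster, the summed G2/M level was 1680 and 1473 CPM in cluster 5, 1700 and 1877 CPM in cluster 19, and 648 and 475 CPM in cluster 7. When each cell was thinned to 2000 UMIs, so that deep cells no longer weigh more, 28 of 43 members were lower (all genes 41.5%). The median log2 ratio of members was then -0.72 instead of -0.30, beside -0.46 for all genes. Members were thus lower more often than all genes after thinning, the reverse of the unthinned counts, so no direction is read for T cells.

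Among the other members measured at 50 CPM or more in control T cells, the ligated, control and AF12198 values were 0, 59.7 and 48.5 CPM for Mcm2, 37.2, 68.4 and 61.8 for Mcm3, 18.6, 54.3 and 44.4 for Mcm4, 0, 74.6 and 51.5 for Mcm5 and 93.1, 54.9 and 47.1 CPM for Mcm7. Rrm1 was at 37.2, 101 and 77.1 CPM and Rrm2 at 18.6, 59.2 and 42.5 CPM. Birc5 was at 0, 56.8 and 52.7 CPM, Cenpe at 0, 52.1 and 38.0, Cenpf at 0, 60.2 and 45.4 and Kif11 at 0, 56.6 and 43.6 CPM. All of these were lower in the AF12198 than in the control tumour by less than 1.5-fold. Cenpa, the centromeric histone, was at 316, 252 and 201 CPM, and Cdkn1a at 242, 195 and 128 CPM, so neither was low in ligated T cells. Members at 0 in the ligated library rest on 56 cells, in which 3 UMIs amount to 55.8 CPM.

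In dendritic cells 24 of 43 members were lower (all genes 39.3%) and 0 higher (all genes 7.6%). The median log2 ratio was -0.69 beside -0.43 for all genes, and 16 of 25 G2/M members were lower, beside cycling shares of 9.45% and 9.49%. Rrm2 was at 27.8 and 11.6 CPM (0.417), Cdca3 at 27.0 and 11.9 (0.441), Kif23 at 20.6 and 8.57 (0.416), Cdc20 at 11.3 and 4.92 (0.434) and Plk1 at 6.61 and 2.54 CPM (0.384). Cluster 10 made up 74.9% of the control and 68.9% of the AF12198 dendritic cells, and the little-cycling cluster 22 made up 16.0% and 23.6%. At a 2-fold threshold 8 members were lower. In macrophages 0 members were higher (all genes 8.7%) and 6 lower (all genes 33.1%): Cdkn2a (9.45 and 4.36 CPM), Ube2c (41.7 and 23.1), Rrm2 (19.3 and 11.02), Ccna2 (13.2 and 7.62) and Mcm5 (30.5 and 18.5) had the lowest ratios, 0.461 to 0.606. Thinned to 2000 UMIs, 17 macrophage members were lower (all genes 33.2%), and the median log2 ratio was -0.38 beside -0.34 for all genes.

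In endothelial cells G1/S members were lower more often than all genes, and G2/M members about as often as all genes. Of 43, 2 were higher (all genes 12.9%) and 16 lower (all genes 27.4%), among them 5 of 6 helicase subunits, 8 of 14 G1/S members and 7 of 25 G2/M members. Mcm2 was at 41.2 and 21.4 CPM (0.519, 0.354 to 0.753), Mcm5 at 32.9 and 17.2 CPM (0.524), Pclaf at 94.7 and 49.8 (0.526) and Rrm1 at 90.8 and 47.9 (0.528) in the control and AF12198 tumours, and the checkpoint kinase Bub1b at 18.2 and 8.38 CPM (0.461). Ccnb1 was higher, at 5.398 and 14.4 CPM (2.67, 1.31 to 5.89). Cluster 14 made up 79.2% of the control and 90.1% of the AF12198 endothelial cells.

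Fibroblasts and plasma cells had more members higher than lower. In fibroblasts 10 of 43 were higher (all genes 10.1%) and 1 lower (all genes 26.9%), with a median log2 ratio of 0.15 beside -0.27 for all genes. Tk1 was at 9.55 and 19.3 CPM (2.02, 1.55 to 2.62), Tyms at 20.7 and 40.3 CPM (1.94, 1.63 to 2.32) and Ccne1 at 8.02 and 14.3 CPM (1.78); Cdca8 (1.68) and Pclaf (1.63) followed. The helicase genes were not among them, with 0 of 6 called either way. The count is unsteady, at 4 with called doublets kept, 6 under stricter cell filters and 16 at a resolution of 2.0. In plasma cells 21 of 38 measured members were higher (all genes 13.8%) and 3 lower (all genes 37.2%), among them 15 of 21 G2/M members. Nusap1 was at 8.29 and 33.8 CPM (4.08, 2.28 to 7.43), Ccne1 at 5.65 and 25.9 CPM (4.59), and Mcm5 was lower, at 20.7 and 7.89 CPM (0.381). Of the calls, 3 higher and 1 lower were set by the minimum. The AF12198 pool holds 68 plasma cells, with 16 cycling, and only 7 members were called higher among those with at least 20 expected UMIs. Thinned to 2000 UMIs, 7 plasma members were measured, of which 1 was higher (all genes 22.7%) and 1 lower (all genes 32.9%).

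B cells and neutrophils had most members lower. In B cells 28 of 37 measured members were lower (all genes 42.4%) and 1 higher (all genes 7.75%), and all 20 measured G2/M members were lower, 9 of them by calls set by the minimum. Thinned to 2000 UMIs, 9 of 17 measured members were lower (all genes 42.3%), and the median log2 ratio was -0.59 beside -0.46 for all genes, so most of the contrast was lost. Pclaf was at 48.8 CPM (62 UMIs) in the control and 6.42 CPM (8 UMIs) in the AF12198 tumour, a ratio of 0.132 (0.0544 to 0.276), and Ccna2 had 21 and 1 UMIs (0.0486, 0.00117 to 0.302). Pcna was at 244 CPM in both. Free RNA was estimated to give 6.56% of the G2/M level of control B cells and 52.8% of that of AF12198 B cells. In neutrophils without cluster 31, a choice made after the data were seen, 31 of 43 were lower (all genes 38.8%) and 1 higher (all genes 8.37%). Ube2c was at 0, 20.3 and 5.70 CPM in the ligated, control and AF12198 libraries and Ccna2 at 0, 7.87 and 1.34 CPM, whereas Mki67 was the higher one, at 0, 13.2 and 23.2 CPM (1.76, 1.42 to 2.19). These levels are low, and free RNA was estimated at 23.1% and 27.4% of the G2/M level; control neutrophils lie mostly in cluster 0 and AF12198 neutrophils in clusters 1 and 3.

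**Figure D4:**
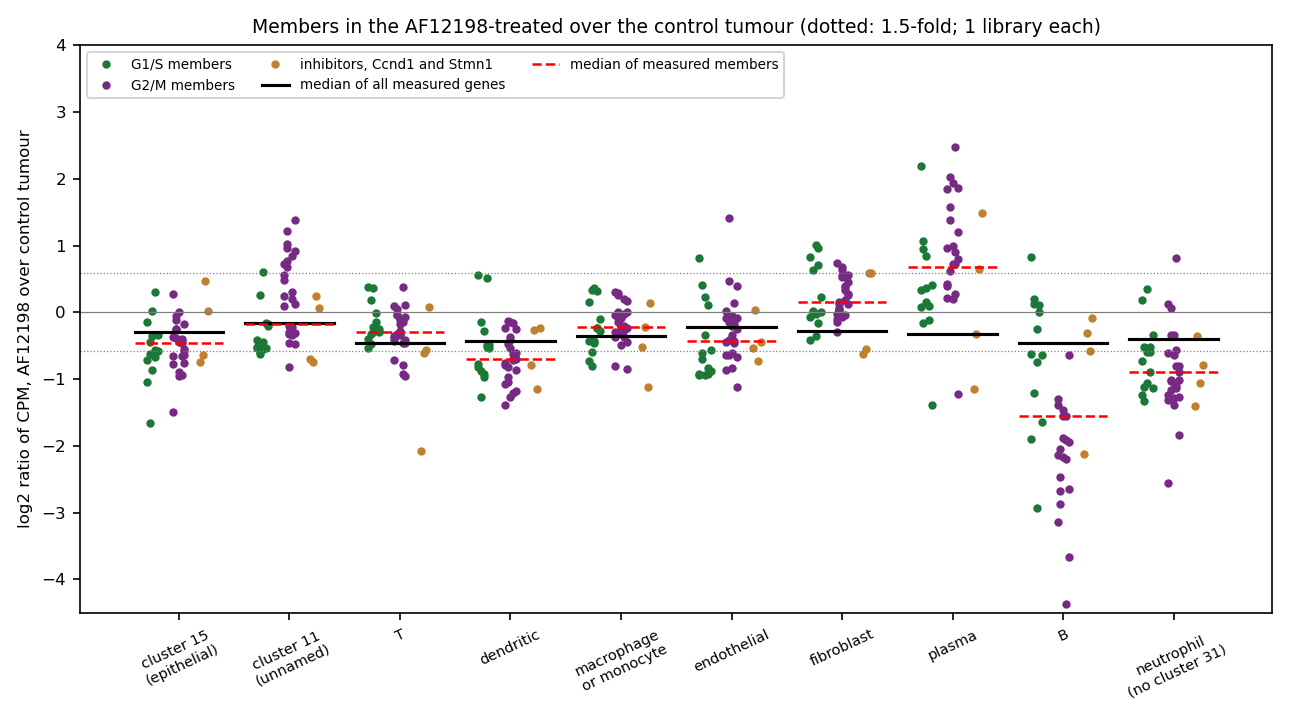
Log2 ratio of CPM (y axis), AF12198 over control tumour for each measured member (points, coloured by phase), by class or cluster, with the median of all measured genes (black line) and of the members (dashed line); dotted lines mark 1.5-fold. Fibroblast and plasma members lie mostly above that median, and B cell and neutrophil members mostly below it.

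Across the 12 classes measured in both tumours, few members differed in 1 direction in most classes. Of 37 members measured in 9 or more classes, 3 were lower in 9 or more (all genes 11.3%) and 0 higher (all genes 3.05%), which is a share near the background. Ccnd1 was lower in 9 of 12 classes, and Mcm5 and Ccna2 in 9 of 11 each, Ccna2 being higher in 1. Rrm2 and Ube2c were each lower in 8 of 11. The classes share the 2 libraries and are not replicates.

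Within cycling cells alone, the 2 tumours could be compared without the share of cycling cells. In cluster 15, Ccna2 was at 141 CPM in control and 62.4 CPM in AF12198 cycling cells, and Rrm2 at 150 and 53.9 CPM. Ccna2 was also lower in cycling T cells (178 and 119 CPM), macrophages (82.7 and 54.2), dendritic cells (96.5 and 51.1), fibroblasts (123 and 68.7) and endothelial cells (153 and 120). Tyms, which like Rrm2 supplies nucleotides, gave no such order: it was at 57.9 and 80.0 CPM in cluster 15, 108 and 101 in T cells, 42.0 and 50.7 in macrophages and 91.7 and 143 CPM in fibroblasts. The genes shown here were chosen after their values were seen. Cycling cells were selected on Mki67 and Top2a UMIs, and depth differed between the libraries.

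Cells that met the cycling rule carried the other members too, which was measured on the 41 members the rule does not use. In cluster 15 of the control tumour 38 of 41 were at least 1.5-fold higher in the 182 cycling cells than in the 364 others, and 0 were lower. Ccna2 was at 141 against 5.69 CPM, Cenpf at 145 against 3.50 and Nusap1 at 90.8 against 2.33 CPM. Helicase genes were less separated, with Mcm2 at 78.5 against 33.7 CPM. Ccnd1 (584 and 485 CPM), Cdkn1a (114 and 129) and Cdkn2a (356 and 352) were not separated at all at 1.5-fold. In T cells 38 of 41 in the control and 39 of 41 in the AF12198 tumour were higher in cycling cells, and 39 and 40 in macrophages and 38 and 39 in fibroblasts. Cluster 11 was the weakest, with 29 in the control tumour at a median ratio of 2.11, against 8.89 in cluster 15. Cycling cells were deeper than the others in each of these pools.

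Members differed in how far they followed the G2/M genes. Over 34 pools of class and library, Top2a (r = 0.95), Rrm2 (0.92) and Cdk1 (0.91) followed the summed level of the other G2/M members closely, while Cdkn1a (0.097) and Ccnd1 (-0.085) did not. Tyms (0.40), Ccne1 (0.43) and Cdkn2a (0.58) lay between. These are Pearson correlations of log2(CPM + 1), given as a description, since pools of 1 library share its depth and its free RNA. By the same measure the genes outside the set most like the G2/M members were Diaph3 (0.87), Racgap1 (0.85), Uhrf1 (0.80), Abcb1b (0.79), Hist1h1b (0.79), Arhgap11a (0.79), Mad2l1 (0.78), Dbf4 (0.77), Hells (0.77) and mt-Atp6 (0.77), among 9127 ranked.

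Ccnd1 was present in many classes, with its highest levels in epithelial cells. It was at 1343, 861, 553 and 332 CPM in epithelial cells of the normal, ligated, control and AF12198 libraries, and at 908 and 466 CPM in cluster 13 of the 2 tumours. Endothelial cells had 217, 94.2, 427 and 295 CPM, and fibroblasts 136, 18.8, 35.9 and 23.2 CPM. Cluster 11 had 578 and 358 CPM and dendritic cells 220 and 127 CPM in the control and AF12198 tumours, and T cells 28.3 and 6.70 CPM. The AF12198 value was the lower one in each of these classes.

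Cdkn1a was highest in myeloid cells. Neutrophils had 684, 1598 and 1286 CPM in the ligated, control and AF12198 libraries, and macrophages 425, 1079 and 923 CPM. Dendritic cells had 853 and 714 CPM in the 2 tumours. Endothelial cells had 608 CPM in normal pancreas and 182, 320 and 329 CPM in the ligated, control and AF12198 libraries, so the normal library was highest. In epithelial cells it was at 96.7, 85.7, 126 and 96.2 CPM, but cluster 13 of the tumours had 216 and 292 CPM where cluster 15 had 121 and 77.9 CPM.

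Cdkn2a marked the tumour epithelium. It had 1 UMI in all normal epithelial cells (0.112 CPM), 0 in ligated ones, and 337 and 449 CPM in the control and AF12198 tumours, at least 247.78-fold higher in the control than in the ligated library with the ligated value set to a floor of 3 UMIs. In cluster 15 it was detected in 91.4% of control cells at 354 CPM and in 92.7% of AF12198 cells at 489 CPM. Cluster 11 had 314 and 371 CPM, whereas cluster 13 of the same tumours had 5.67 and 23.0 CPM. Fibroblasts had 0, 10.96, 18.3 and 27.5 CPM across the 4 libraries. The 3′ counts cannot tell p16 from Arf, the proteins that share this gene.

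**Figure D5:**
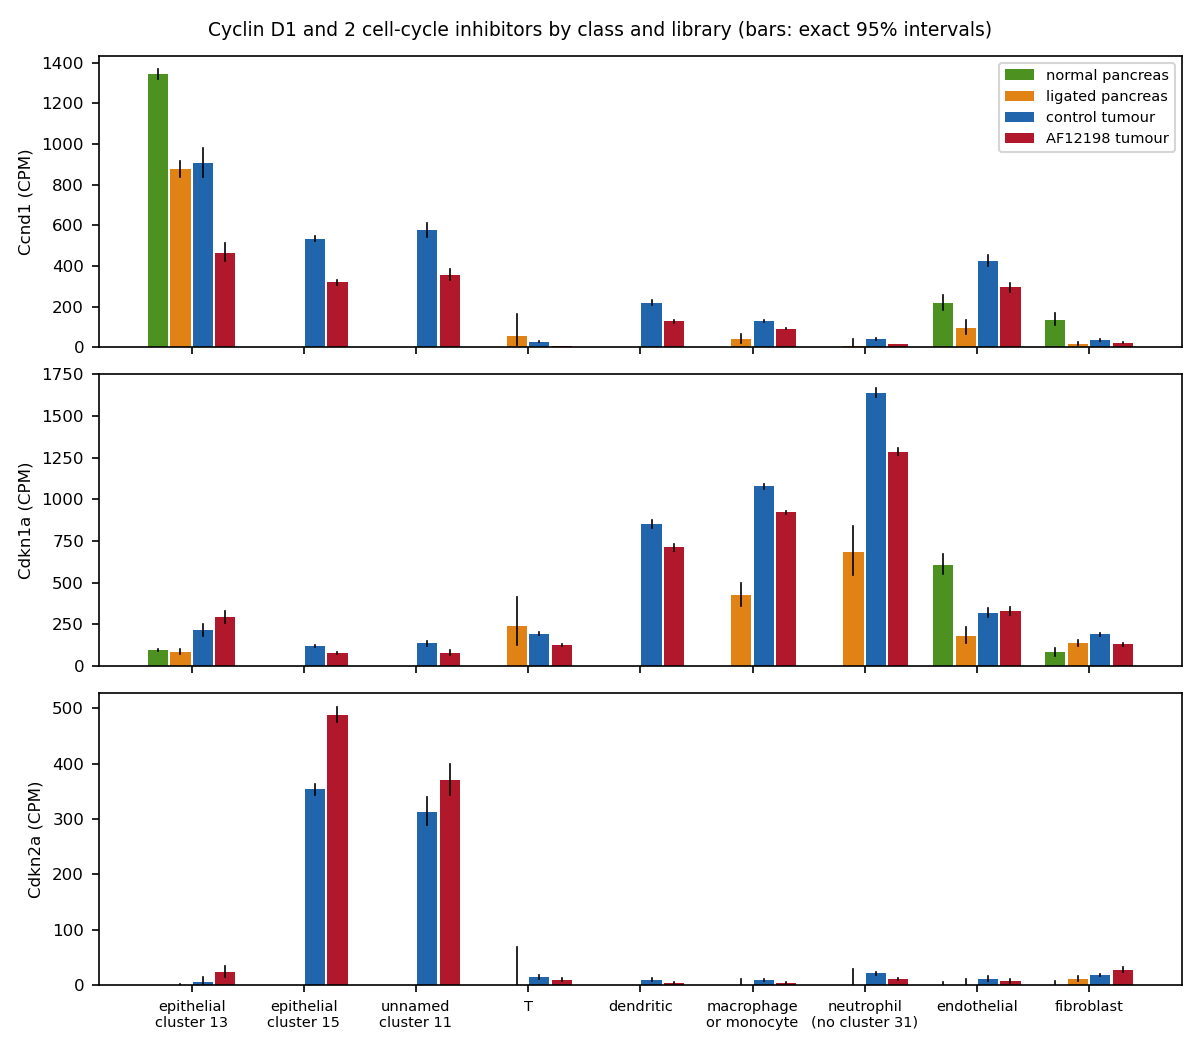
Levels of Ccnd1, Cdkn1a and Cdkn2a (bars, CPM on a linear y axis) by class or cluster and library, with exact 95% Poisson intervals (lines). Cdkn2a is high in tumour epithelial cells and cluster 11, and Cdkn1a in neutrophils, macrophages and dendritic cells.

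Fixed lists of other genes of the pathway were read beside the members. In epithelial cells of the control tumour over ligated pancreas, 26 of 39 other S-phase genes were higher and 3 lower, 39 of 44 other G2/M genes higher and 2 lower, 14 of 23 G1 regulators higher and 4 lower, and 9 of 19 p53 response genes higher and 5 lower, beside 26.8% of all genes higher and 38.5% lower. E2f1 was at 0.907 and 19.1 CPM (21.1, 5.78 to 175) and Cdkn2b, which encodes the inhibitor p15, at 7.25 and 70.5 CPM (9.72). Gmnn, which restrains re-replication, was lower (111 and 29.2 CPM; 0.264), as was Sesn1 (38.1 and 5.94 CPM; 0.156).

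Between the tumours, cluster 15 had 11 of 39 other S-phase genes, 21 of 44 other G2/M genes and 9 of 23 G1 regulators lower in the AF12198 library, with 0, 0 and 1 higher. Of all genes 29.1% were lower and 11.8% higher, so the S-phase list lay at the background, with a median log2 ratio of -0.28 beside -0.29. Cdt1, the licensing factor that loads the helicase, was at 49.9 and 20.1 CPM (0.404, 0.344 to 0.472), E2f1 at 19.96 and 8.50 CPM (0.426), Ccnd2 at 399 and 167 CPM (0.419) and Foxm1, a transcription factor of G2/M genes, at 24.7 and 11.2 CPM (0.455). In fibroblasts 10 of 39 other S-phase genes were higher (all genes 10.1%) and 1 lower, Gins2 being at 4.74 and 12.4 CPM (2.61, 1.84 to 3.71) and Cdt1 the lower one at 12.5 and 5.16 CPM (0.412). Plasma cells had 22 of 28 other G2/M genes higher (all genes 13.8%) and 0 lower, and B cells 17 of 24 lower (all genes 42.4%) and 1 higher. Of these, 7 of the 22 plasma calls and 3 of the 17 B cell calls were set by the minimum. Cdt1 was lower in 10 of the 11 classes in which it was measured, and E2f1 in 9 of 9.

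Of the p53 response genes, Bax, which promotes cell death, was higher in the AF12198 tumour in 12 of 12 classes, at ratios of 1.65 to 2.77, and Gdf15, a secreted stress factor, was lower in 10 of 12. In cluster 15 Bax was at 48.3 and 91.8 CPM, Phlda3 at 21.8 and 51.1 CPM (2.34, 2.03 to 2.70) and Gdf15 at 84.8 and 24.1 CPM (0.285, 0.247 to 0.327), and Cdkn1a, itself a p53 target, at 121 and 77.9 CPM. The list as a whole had 2 of 19 higher and 6 lower in that cluster, near the shares of all genes (11.8% and 29.1%).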

How the data were processed

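Cells of 4 mouse libraries (10x Genomics 3′ v3) were analysed, 1 per group, from the deposited matrices of UMI counts per gene and barcode. Per the submitters' processing notes, Cell Ranger 6.0.0 and the build mm10 were used by the authors for these counts; the annotation release is not given in the sources used here. The members and gene lists were chosen with earlier results of these data known.

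Barcodes with at least 500 UMIs, 250 genes and at most 20% mitochondrial UMIs were kept (11350597, 5360054, 95779324 and 96886820 UMIs before filters in the normal, ligated, control tumour and AF12198 libraries). Scrublet removed 1, 0, 2274 and 993 doublets; it called 1 cell in the AF12198 library, where the top 5% of scores were removed instead. Counts were clustered with Python 3.11.15, scanpy 1.11.5, scikit-learn 1.9.0 and igraph 0.11.9 on 2000 variable genes without cell-cycle genes, 40 components, 20 neighbours and resolution 1. A cluster took a class name from at least 3 markers raised 2-fold; 27 were named, 5 not, in 13 of 18 classes. UMIs were summed per class and library where it had at least 50 cells. A gene was measured at 5 or more UMIs expected in the shallower pool from the mean of both levels. Shares have Clopper-Pearson intervals, levels exact Poisson and ratios exact conditional intervals (scipy 1.17.1), at 95%. The floor, and the limit for a count of 0, is 3 counts. Free RNA per class was estimated from 10 markers of other classes.

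Genes were named by rule: members at 50 CPM or more in the pool with most G2/M UMIs, the inhibitors and Ccnd1, up to 5 called members per direction and comparison whose interval leaves out 1, up to 3 genes per other list, and the 10 most like genes. Alternatives were other filters, doublets kept, other resolutions, cell-cycle genes kept in clustering, thinning, other folds and minima, other cycling rules, another scaling and subtraction of free RNA.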

Additional observations from a re-analysis of the deposited data

How the results depend on the processing

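With 1 library per group no test between groups and no leave-one-out fit can be had, and intervals cover counting error only. No paired analysis was possible because each group has 1 library. Over all alternatives, 118 counts of higher members stayed within 1.5 times the reported count and 40 did not, as against 122 and 36 counts of lower members. Ratios of cycling shares stayed within the error of the reported value in 91 cases, moved in 5 and turned in 3, and medians over members stayed in 143 and moved in 15. The macrophage ratio of cycling shares, AF12198 over control, was 1.273 as reported and fell below 1 with Cdk1, Birc5 and Ube2c as the rule (0.878) and with cells thinned to 2000 (0.761) or 5000 UMIs (0.731). The T cell ratio, 0.919 as reported, was 1.106 at 4 or more UMIs and 0.647 and 0.729 after thinning, and the dendritic ratio was 0.735 at 5000 UMIs. The fibroblast control over ligated ratio was 1.058 at 2000 UMIs.

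A 2-fold threshold left 3 lower members in cluster 15, 1 in T cells and 8 in dendritic cells, and 1 higher member in fibroblasts and 11 in plasma cells between the tumours, and 12 in fibroblasts of control over ligated tissue; by construction it calls fewer genes. Between the tumours, thinning to 2000 UMIs gave 28 of 43 members lower in T cells (all genes 41.5%) and 1 of 7 higher in plasma cells (all genes 22.7%). For control over ligated tissue it gave 11 of 16 higher in fibroblasts (all genes 25.5%) and 5 of 6 in endothelial cells (all genes 24.9%). A minimum of 20 expected UMIs, which measures fewer members, gave 7 higher in plasma and 6 in endothelial cells. Fibroblast members higher in the AF12198 tumour numbered 6 under stricter filters, 4 with doublets kept and 16 at resolution 2.0, and 17 were higher in control over ligated fibroblasts at that resolution. The cause of these last changes was not tested. Shares of all genes are not given here for the other folds, minima, filters, doublets and resolutions, so those counts are not read against a background. No ratio of a named member changed direction after subtraction of free RNA.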

Other observations

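Cycling cells also appeared in pools whose shares are not given in the text above. Cluster 31, led by the granule genes Ngp and Camp of immature neutrophils, held 56 cells of the control tumour, of which 12 were cycling (21.4%, exact 95% interval 11.6 to 34.4), and its summed G2/M members stood at 2437 CPM. Without it the control neutrophils' summed G2/M level was 195 CPM, and with it 268 CPM. Cluster 30, led by the osteoclast genes Ctsk, Acp5 and Atp6v0d2 and left unnamed, held 70 cells of the AF12198 tumour, of which 26 were cycling (37.1%, 25.9 to 49.5), with summed G2/M members at 1722 CPM. Their median depth was 16569 UMIs, which raises the share that meets a rule of 2 UMIs. Mast cells or basophils of the AF12198 tumour were cycling in 10 of 179 cells (5.59%), and erythroid cells in 4.51% of control and 2.56% of AF12198 cells.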
